A study of Mus musculus with 2 samples.

Results

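The 47 genes described here copy the DNA and divide the cell. They were chosen by name, though with earlier results of these data known. They comprise 15 genes that license and start replication origins, 15 that synthesise DNA, 4 that supply deoxynucleotides, 5 that encode cyclins or the kinase Cdk1, and 8 that act in mitosis. All 47 were found among the 24091 genes listed, and all 47 passed the filter of 1 FPKM, the fragments of a gene scaled to its length and to the library's total, in either library, as did 11253 genes in all. The members' levels were far from that filter, since the lowest was 3.58 FPKM. The material was labelled as primary adipocytes of C57BL/6 mice and comprised 1 library from sham-irradiated mice, labelled as no radiation, and 1 from mice given pelvic radiation, described with 7.5 Gy and 5 days. The labels do not say whether that dose was daily or total, nor how many mice were pooled, and both titles name PBS without saying what it was used for. Gonadal fat was taken 2 months after radiation, digested with collagenase, and its floating fraction cultured for 3 days before RNA extraction. With 1 library per condition there was no replicate and no test, so every difference below compares these libraries and not the conditions.

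Before S phase, the origin recognition complex, Cdc6, and Cdt1 load the Mcm2 to Mcm7 helicase onto DNA, and the GINS complex then helps to activate it. Polymerases copy both strands behind the helicase, held on DNA by the Pcna clamp, while ribonucleotide reductase and thymidylate synthase make the precursors. Cyclin A and cyclin B with Cdk1 drive entry into mitosis, where Aurora and Polo kinases organise the spindle. Many of these genes are transcribed by E2F factors in late G1 or through CHR elements in G2, and RB family proteins in the DREAM complex repress them when cells leave the cycle, which the CDK inhibitor p21 (Cdkn1a) promotes. Mature adipocytes are regarded as non-dividing, whereas the progenitors of the same fat pad divide in culture.

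The sham-irradiated library held about 30600000 recovered fragments and the irradiated one 35000000, and 86.8% and 86.9% of them lay on listed genes. Of the 14 mature adipocyte markers, 4 passed the filter, and Adipoq, which encodes adiponectin, had 5 and 10 fragments. The 4 that passed were Fabp4, a fatty acid carrier, with 96.9 FPKM in both libraries, Cebpa with 13.45 and 14.4, Pnpla2 with 5.11 and 5.76, and Pparg with 4.59 and 4.69 FPKM. The rest were below 1 FPKM in both libraries, among them Plin1 (0.25 and 0.48 FPKM), Plin4 (0.18 and 0.35), Cidec (0.23 in both), and Lep (0 and 2 fragments). Most markers of the label were thus below the filter, and Fabp4 made up most of the summed level of the 14. All 12 fibroblast and progenitor markers passed, with a summed level of 4551 FPKM in the sham-irradiated and 3637 FPKM in the irradiated library, compared to 123 and 126 FPKM for the adipocyte markers. Macrophage markers (11 of 12 passed) summed to 611 and 651 FPKM, endothelial markers (8 of 8) to 44.6 and 48.6 FPKM, and mesothelial markers (8 of 8) to 34.5 and 49.5 FPKM. None of the 8 lymphocyte, 6 epithelial, or 6 male germ cell markers passed, with sums of 2.1 and 1.02, 0.406 and 0.70, and 0.296 and 0.167 FPKM, respectively, and Tnp1 and Prm1 were at 0 fragments in both libraries. The median difference was 0.44 for macrophage, 1.255 for mesothelial, 0.165 for endothelial, and -0.065 for fibroblast markers. Of the mesothelial markers, Msln, Upk3b, Krt19, and Krt18 reached 1 FPKM only in the irradiated library, as did Dpp4 of the fibroblast markers. Their passing thus depended on the library in which they were higher. Among single markers, Col1a1, the main fibroblast collagen, had 1937 and 1428 FPKM, and Msln, a mesothelial marker, 0.52 and 2.71 FPKM on 34 and 202 fragments. Of the 8 mesothelial markers, 7 were higher, compared to 53.5% of all genes. Wt1, the most abundant of the 8, was lower, with 20.4 and 18.7 FPKM. Other fibroblast markers did not follow Col1a1, since Dcn had 549 and 553 FPKM and Thy1 7.57 and 10.03 FPKM. Of their 12 counting intervals (95%, for the ratio of fragments), 7 lay below 0 and 2 above. Among all genes that passed the filter, 17.4% had an interval below 0 and 23.8% one above, the shares to set beside the macrophage counts too. Of the 11 macrophage markers, 9 were higher and 2 lower, with 8 intervals above 0 and 1 below, and examples are Cd68 with 59.2 and 96.9 FPKM, C1qa with 12.5 and 21.9, and Lyz2 with 443 and 410.0 FPKM. Adgre1, at 15.7 and 15.5 FPKM, was the other lower macrophage marker, and Pecam1 of endothelium had 10.2 and 11.5 FPKM. These cell types' part in the differences of the replication and mitosis genes was not tested, and fewer dividing cells cannot be told apart from less RNA of these genes per cell.

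Replication and mitosis genes were slightly lower in the irradiated library, and none of them differed by much. Their median difference, on the log2(FPKM + 0.1) scale and as irradiated minus sham-irradiated, was -0.10, and the differences ran from -0.31 (Cdc6) to 0.11 (Rrm1). The same median over all 11253 genes was 0.02. Of the 47 genes, 38 were lower in the irradiated library, 8 were higher, and Rpa1 was the same in both, whereas 44% of all genes were lower and 53.5% higher. A difference of at least 0.1 was reached downward by 25 of the 47 (21.8% of all genes) and upward by 2, Rrm1 and Ccne1 (31.9% of all genes). None of the 47 (0 genes) differed by 1 or more, up or down, as 1.16% of all genes did. The fragments of the 47 genes together made up 0.404% of the sham-irradiated and 0.381% of the irradiated library.

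Each difference was also set against counting error, by means of an exact 95% interval (Clopper-Pearson, for a binomial share) for the log2 ratio of the fragments recovered, each scaled to its library. It takes in no more than counting error, because PCR makes several fragments from 1 molecule and the spread between mice and cultures is not in it. It lay below 0 for 23 of the 47 genes (17.4% of all genes), above 0 for 1 gene, Rrm1 (23.8% of all genes), and included 0 for the other 23. The member with the fewest fragments, Gins1, had 229 and 226, and well-counted genes have narrower intervals. Among the 9398 genes with at least 226 fragments in both libraries, 19.5% had an interval below 0, 23.9% an interval above 0, and 21.1% were lower by at least 0.1. This sets only a lower limit and does not match the members' depth. Their median level in the sham-irradiated library was 21.0 FPKM, compared to 8.30 FPKM for all 11253 genes.

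**Figure D1:**
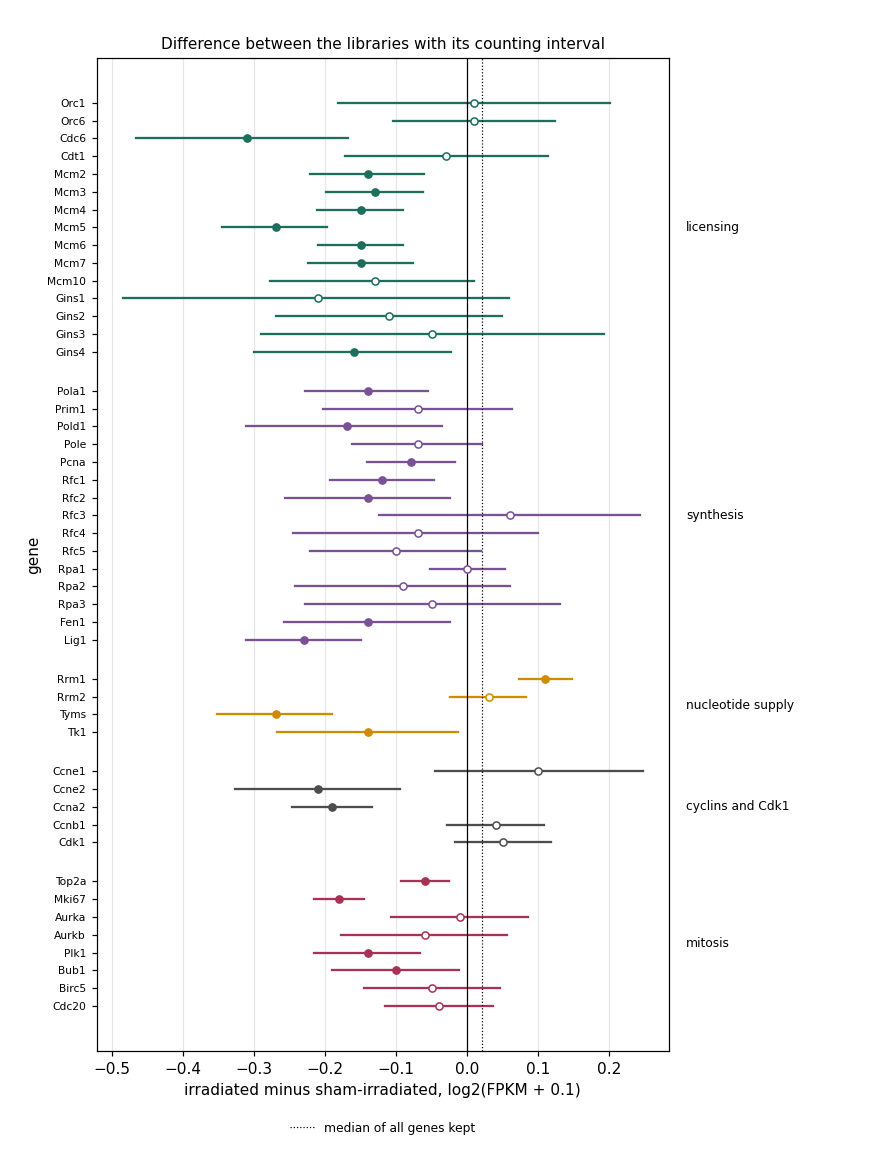
Difference of each of the 47 genes between the libraries (irradiated minus sham-irradiated, log2(FPKM + 0.1)), grouped by step. Horizontal bars are 95% counting intervals, filled points have an interval that excludes 0, and the dotted line is the median of all genes kept (0.02). Licensing genes lie furthest to the left as a group, and Rrm1 is the only point whose interval lies above 0.

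The 15 licensing genes had the lowest median of the steps, -0.14, with 13 lower and 2 higher. The log2 ratio of their summed fragments, scaled to each library, was -0.15 (counting interval -0.17 to -0.13). That sum mostly reflects the Mcm2 to Mcm7 helicase, with 20656 of 26524 fragments in the sham-irradiated and 21108 of 27362 in the irradiated library. The step without the helicase was not summed. The 6 subunits of the replicative helicase moved together. Mcm2 had 24.2 FPKM in the sham-irradiated and 21.9 FPKM in the irradiated library, Mcm3 had 38.5 and 35.2, and Mcm4 had 39.6 and 35.7. Mcm5 had 28.7 and 23.8 FPKM, Mcm6 had 33.0 and 29.8, and Mcm7 had 40.4 and 36.4. All 6 were thus lower, 5 of them by 8.64% to 9.9% and Mcm5 by 17.1%, and all 6 counting intervals lay below 0. In both libraries the order of their levels, per gene length, was Mcm7, Mcm4, Mcm3, Mcm6, Mcm5, and Mcm2. Mcm7 and Mcm4 did not differ beyond counting error in either library, nor did Mcm4 and Mcm3, whereas every later pair of neighbours did. The highest level was 1.67 times the lowest in the sham-irradiated and 1.66 times in the irradiated library.

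Mcm5, on chromosome 8 from 75109509 to 75128439 (mm10), had the largest difference of the helicase at -0.27 (counting interval -0.35 to -0.20), on 3076 and 2917 fragments. The 160 bases before its start and those before Mcm6 are shown because both carry an E2F match, in capitals here together with CCAAT boxes, the binding motif of NF-Y, which read ATTGG where they lie on the other strand. They are RefSeq sequences of GRCm38.p6, the build also called mm10, and run 5′ to 3′ on the gene's strand at chr8:75109349-75109508 (plus) and chr1:128359706-128359865 (minus).
Mcm5: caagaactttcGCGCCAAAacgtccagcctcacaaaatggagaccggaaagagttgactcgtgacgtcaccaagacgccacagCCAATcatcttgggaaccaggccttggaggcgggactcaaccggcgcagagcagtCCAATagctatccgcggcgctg
Mcm6: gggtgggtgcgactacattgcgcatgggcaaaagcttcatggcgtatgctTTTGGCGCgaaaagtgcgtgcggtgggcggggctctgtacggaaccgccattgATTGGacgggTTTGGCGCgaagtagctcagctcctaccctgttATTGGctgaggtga
The first capitals of Mcm5 are an E2F match on the other strand 149 bases before the start, and Mcm6 has 2 E2F matches, 110 and 47 bases before it.

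The loading factors did not move as 1 group. Cdc6, the ATPase that loads the helicase (chromosome 11 from 98907889 to 98923942), had 5.14 FPKM in the sham-irradiated and 4.13 FPKM in the irradiated library, a difference of -0.31 (counting interval -0.47 to -0.17) and the lowest of all 47. Cdt1, its partner in loading, had 7.31 and 7.16 FPKM, a difference of -0.03 with an interval that includes 0. The origin recognition subunits Orc1, with 4.59 and 4.62 FPKM, and Orc6, with 23.0 and 23.2 FPKM, each had a difference of 0.01 and an interval that includes 0. Mcm10, which helps to start the fork, had 4.19 and 3.82 FPKM, a difference of -0.13 with an interval that just reaches 0 (-0.28 to 0.01). The 4 GINS subunits were all lower. Gins1 had 6.49 and 5.60 FPKM, Gins2 had 20.01 and 18.5, Gins3 had 3.71 and 3.58, and Gins4 had 20.2 and 18.0. Of their intervals only that of Gins4 lay below 0, and the levels within this complex spanned 5.43 times in the sham-irradiated library, with Gins3 the lowest. Gins2 overlaps Gse1 on the other strand, and since the sources do not say whether counting used strand, its value is uncertain.

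**Figure D2:**
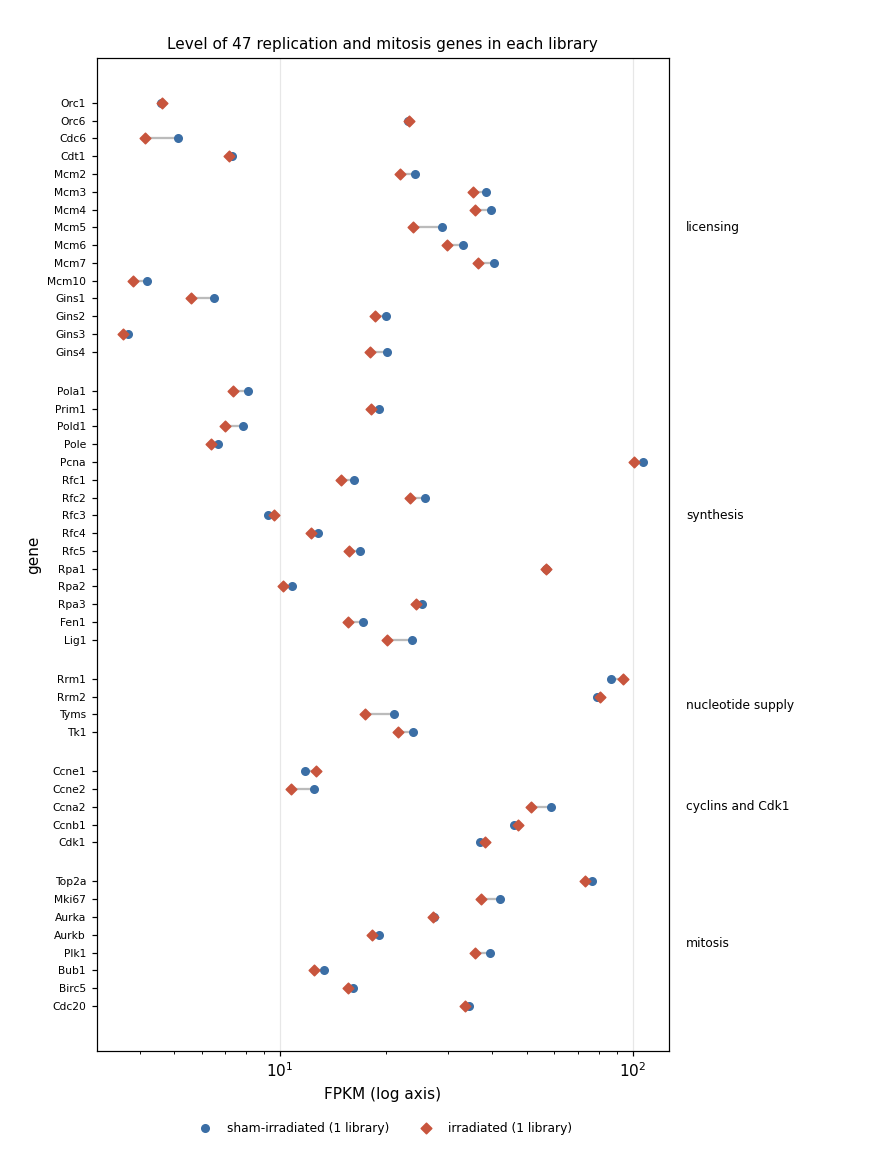
Level of each of the 47 genes in the sham-irradiated (circles) and the irradiated library (diamonds), in FPKM on a log axis, grouped by step, with 1 library per condition. Levels run from about 3.6 FPKM (Gins3) to 107 FPKM (Pcna), and the gap between the libraries is small beside the range between genes.

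DNA synthesis genes were lower by less, with a median of -0.09 over 15 genes, 13 lower, 1 higher, and 1 the same. The log2 ratio of their summed fragments was -0.09 (counting interval -0.12 to -0.07). Pcna, the sliding clamp, was the most abundant of the 47 per gene length, with 107 FPKM in the sham-irradiated and 101 FPKM in the irradiated library, a difference of -0.08. Lig1, the ligase that joins Okazaki fragments, had the largest difference of this step, -0.23 (counting interval -0.31 to -0.15), with 23.7 and 20.2 FPKM. Fen1, the nuclease that trims those fragments, had 17.2 and 15.6 FPKM, a difference of -0.14. All 4 polymerase genes were lower. Pola1, the catalytic subunit of polymerase alpha, had 8.13 and 7.36 FPKM, and Pold1, that of polymerase delta, had 7.85 and 6.96, and both intervals lay below 0. Prim1, the primase, had 19.1 and 18.2 FPKM and Pole, the catalytic subunit of polymerase epsilon, 6.67 and 6.35, and both intervals included 0.

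Of the 5 clamp loader genes, 4 were lower, by similar amounts. Rfc1, its large subunit, had 16.2 and 14.9 FPKM and Rfc2 had 25.7 and 23.3, both with intervals below 0. Rfc4, with 12.8 and 12.2 FPKM, and Rfc5, with 16.8 and 15.7, were lower with intervals that include 0, and Rfc3, with 9.22 and 9.61 FPKM, was the only higher gene of the step, by 0.06 with an interval that includes 0. Rfc4 overlaps Eif4a2 on the other strand, which was more abundant, with 38.2 and 41.0 FPKM. The single-strand binding protein RPA was the flattest complex. Rpa1, its large subunit, had 56.8 FPKM in both libraries (counting interval of the difference -0.05 to 0.05), Rpa2 had 10.8 and 10.2, and Rpa3 had 25.2 and 24.3. The summed log2 ratio of RPA was -0.01 (counting interval -0.06 to 0.04), compared to -0.16 (-0.19 to -0.14) for the Mcm2 to Mcm7 helicase, -0.14 (-0.23 to -0.05) for GINS, -0.10 (-0.15 to -0.05) for the clamp loader, and -0.11 (-0.16 to -0.06) for the 4 polymerase genes. The interval of RPA did not overlap that of the helicase, while both overlapped the others.

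The nucleotide supply genes went both ways. Rrm1, the large subunit of ribonucleotide reductase (chromosome 7 from 102441695 to 102469771), had 86.7 FPKM in the sham-irradiated and 93.6 FPKM in the irradiated library, a difference of 0.11 (counting interval 0.07 to 0.15) on 10550 and 13031 fragments. Rrm2, the small subunit, whose level limits the enzyme in S phase, had 79.2 and 80.9 FPKM, a difference of 0.03 with an interval that includes 0. Tyms, thymidylate synthase, had 21.0 and 17.4 FPKM, a difference of -0.27 (counting interval -0.35 to -0.19), and Tk1, the S-phase thymidine kinase, 23.8 and 21.6 FPKM, a difference of -0.14. Neither subunit of the reductase was thus lower, while both thymidine nucleotide genes were. The median of the 4 differences was -0.055. The summed fragments had a log2 ratio of 0.03 (counting interval 0.003 to 0.059), opposite in sign to the median, and -0.07 without Rrm1. A pseudogene of Tyms is listed separately, and reads of such copies can be divided in counting, so the value of Tyms is uncertain. The stretch before the start of Rrm1, at chr7:102441535-102441694 on the plus strand, is shown as an example with 2 CCAAT boxes, in capitals, and neither an E2F nor a CHR match.
Rrm1: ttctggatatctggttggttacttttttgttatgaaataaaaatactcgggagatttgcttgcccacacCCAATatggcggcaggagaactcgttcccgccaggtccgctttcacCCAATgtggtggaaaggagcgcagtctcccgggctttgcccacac

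The cyclins and Cdk1 went both ways, with 2 genes lower and 3 higher, and their median (0.04) and mean (-0.042) had opposite signs. Ccna2, the cyclin of S phase and early mitosis, had 58.8 and 51.5 FPKM, a difference of -0.19 (counting interval -0.25 to -0.13). Ccne2 had 12.5 and 10.8 FPKM, a difference of -0.21, whereas its paralog Ccne1, which acts at the same G1 to S step, had 11.8 and 12.6 FPKM, a difference of 0.10 with an interval that includes 0 (-0.05 to 0.25). The counting intervals of the cyclin E paralogs did not overlap. Ccnb1, the mitotic cyclin, had 46.1 and 47.4 FPKM, and its kinase Cdk1 had 36.9 and 38.2 FPKM, differences of 0.04 and 0.05 with intervals that include 0. The summed fragments of the 5 genes had a log2 ratio of -0.06 (counting interval -0.09 to -0.03), which was 0.015 without Ccna2. Ccna2 overlaps Exosc9 and Ccne2 overlaps Ints8 on the other strand, and these neighbours had 9.68 and 10.2 FPKM and 10.3 and 10.6 FPKM.

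All 8 mitosis genes were lower in the irradiated library, by small amounts, with a median of -0.06 and differences from -0.18 to -0.01. Mki67, the proliferation antigen that coats mitotic chromosomes (chromosome 7 from 135689788 to 135716379), had 42.1 and 37.2 FPKM, a difference of -0.18 (counting interval -0.22 to -0.15) on 12961 and 13088 fragments. Top2a, the topoisomerase that untangles sister chromatids, had 76.5 and 73.4 FPKM, a difference of -0.06 with an interval below 0. Plk1, the Polo kinase, had 39.3 and 35.7 FPKM, a difference of -0.14, and Bub1, a spindle checkpoint kinase, 13.4 and 12.5 FPKM, a difference of -0.10, both with intervals below 0. Dctn5 lies within Plk1 on the same strand in the listed coordinates and had 26.1 FPKM in both libraries, so the value of Plk1 is uncertain. The other 4 had intervals that include 0, namely Aurka (27.4 and 27.2 FPKM) and Aurkb (19.1 and 18.3), which are the Aurora kinases, Birc5 (16.1 and 15.6), which encodes survivin, and Cdc20 (34.4 and 33.5), an activator of the anaphase-promoting complex. Cdc20 overlaps Elovl1 on the other strand. The summed fragments of the 8 genes had a log2 ratio of -0.10 (counting interval -0.12 to -0.08).

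The sequences before the starts of 4 genes of these last steps show the other kind of match. Capitals mark CHR matches (TTTGAA) and CCAAT boxes in Cdk1, Cdc20, and Mki67, and the E2F match in Birc5, which has no CHR match. The windows are chr10:69352913-69353072, chr4:118437344-118437503, and chr7:135716380-135716539 on the minus strand and chr11:117849077-117849236 on the plus strand.
Cdk1: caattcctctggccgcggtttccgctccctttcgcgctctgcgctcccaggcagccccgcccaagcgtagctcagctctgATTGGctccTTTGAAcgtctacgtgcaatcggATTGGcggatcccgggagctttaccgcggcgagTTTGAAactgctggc
Cdc20: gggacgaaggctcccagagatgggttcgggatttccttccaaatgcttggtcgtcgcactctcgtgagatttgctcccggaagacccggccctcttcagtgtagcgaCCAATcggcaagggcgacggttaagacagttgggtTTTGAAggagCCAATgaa
Mki67: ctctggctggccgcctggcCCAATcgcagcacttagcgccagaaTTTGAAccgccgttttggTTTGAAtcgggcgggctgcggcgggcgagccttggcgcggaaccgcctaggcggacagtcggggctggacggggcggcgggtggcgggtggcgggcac
Birc5: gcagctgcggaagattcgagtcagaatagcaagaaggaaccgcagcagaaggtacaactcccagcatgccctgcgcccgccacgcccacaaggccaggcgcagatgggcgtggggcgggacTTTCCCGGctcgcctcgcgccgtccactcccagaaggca
The CHR match of Cdc20 lies 18 bases before the start and those of Cdk1 lie 71 and 15 bases before it, while those of Mki67 lie further out, at 116 and 98 bases.

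Promoter windows were found for 38 of the 47 genes, namely 11 licensing, 13 synthesis, 4 nucleotide supply, 3 cyclin or Cdk1, and 7 mitosis genes. Mcm4, Gins1, Gins2, Gins4, Pole, Rfc2, Ccne2, Ccna2, and Aurkb had no entry. The 38 genes had 42 windows, and in 34 of these the bases just after the start lay in a known transcript of the gene. All 42 were searched. The 250 bases before each start were searched on both strands for an E2F motif (TTTGGCGC, TTTCCCGC, TTTGGCGG, or TTTCCCGG), the CHR motif (TTTGAA), and the CCAAT box (CCAAT), none of which contains another. An E2F match was present for 8 of the 38 (21.1%), compared to 3.1% of the 27025 genes with a window and 5.72% of the 8746 of them that passed the filter. Of these 8, 5 were licensing genes, namely Cdc6, Mcm5, Mcm6, Mcm7, and Gins3, and the others were Pola1, Rpa1, and Birc5. A CHR match was present for 7 (18.4%), compared to 18.3% of all genes and 12.5% of those that passed, and 3 of the 7 were mitosis genes. A CCAAT box was present for 27 (71.1%), compared to 37.5% and 40.5%. The median difference was -0.145 for the 8 genes with an E2F match and -0.075 for the 30 without, and -0.06 for the 7 genes with a CHR match and -0.09 for the 31 without. The differences of each of these classes overlapped those of its counterpart, since Rpa1 (0.00) and Gins3 (-0.05) carry an E2F match and Tyms (-0.27) and Lig1 (-0.23) do not. Licensing genes, whose median was -0.14, made up 5 of the 8 with an E2F match, so motif and step cannot be told apart here. A match is a run of letters and not evidence that a factor binds. Only exact matches were counted, so a gene without a match may still carry a variant of the motif.

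**Figure D3:**
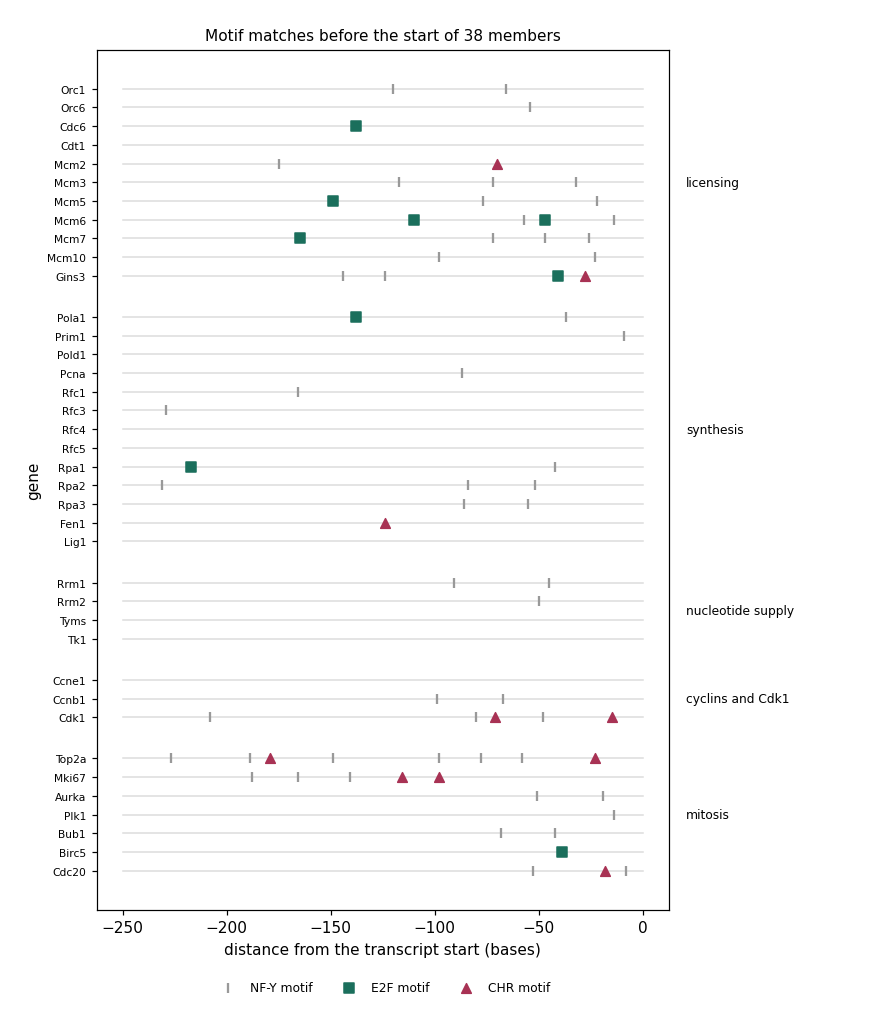
Positions of motif matches in the 250 bases before the start of the 38 genes with a promoter window, by step, on an axis of distance from the start in bases. Squares are E2F, triangles CHR, and bars NF-Y (CCAAT box) matches. Of the 8 genes with an E2F match, 5 are licensing genes, of which 11 have a window.

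Other replication genes were lower by a similar amount, and other mitosis genes by less. Of 45 other replication genes, all of which passed the filter, 34 were lower and 11 higher, with a median of -0.10, and 16 counting intervals lay below 0 and 0 above, compared to 17.4% and 23.8% of all genes, the shares to set beside each list that follows. The differences in this list furthest from 0 were those of Pold4 (1.43 and 1.01 FPKM, on 42 and 34 fragments, with an interval that includes 0), Recql4 (2.21 and 1.61 FPKM), a helicase of fork assembly, and Mtbp (6.58 and 5.33 FPKM) and Pole3 (48.7 and 39.6 FPKM), both at -0.30. Rrm2b, the p53-inducible small subunit of ribonucleotide reductase, had 4.10 and 4.43 FPKM, a difference of 0.11 with an interval that includes 0. Of 54 other mitosis genes listed, 32 were lower, 18 higher, and 4 the same, with a median of -0.045, and 21 intervals lay below 0 and 4 above. Ube2c, the ubiquitin-conjugating enzyme of the anaphase-promoting complex, was the furthest in the upward direction, with 59.6 and 71.9 FPKM, a difference of 0.27 (counting interval 0.18 to 0.36). Kif15, a spindle motor (5.44 and 4.40 FPKM), and Cdca3 (35.2 and 29.8 FPKM) had differences of -0.30 and -0.24.

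**Figure D4:**
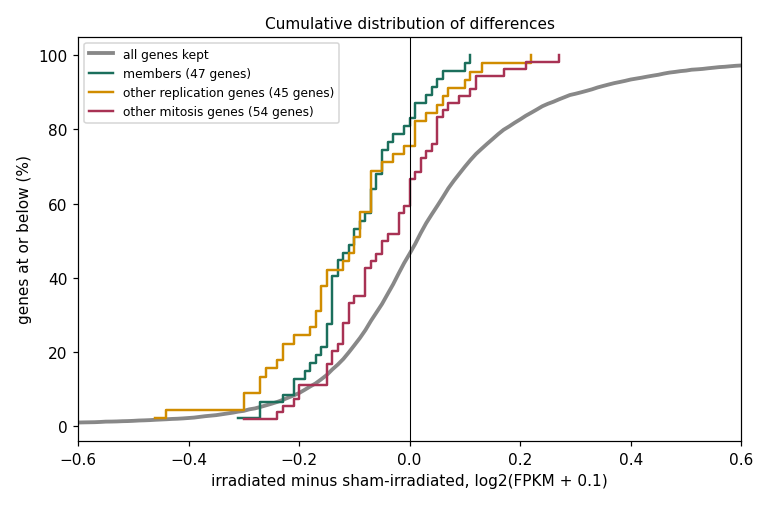
Cumulative share of genes (%) at or below each difference (irradiated minus sham-irradiated, log2(FPKM + 0.1)) for the 47 genes, 45 other replication genes, 54 other mitosis genes, and all 11253 genes kept. The curves of the 47 and of the other replication genes lie to the left of that of all genes, with medians of -0.10 against 0.02, and the other mitosis genes lie between them, at -0.045.

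Regulators of these genes were mixed, and 1 CDK inhibitor stood far from the rest. Of the E2F, RB, and DREAM genes, 20 of 21 passed the filter, with a median of -0.025, 12 lower and 8 higher, and 3 counting intervals below 0 and 2 above, where 17.4% and 23.8% of all genes had such intervals. E2f8, a repressive E2F that is itself an E2F target, had 6.09 and 4.66 FPKM, a difference of -0.38 (counting interval -0.54 to -0.23). Mybl2 and Foxm1, which activate G2 and mitosis genes, had 4.53 and 3.87 FPKM and 17.4 and 16.1 FPKM, and both intervals lay below 0. Rb1, the retinoblastoma protein, had 6.86 and 8.13 FPKM, a difference of 0.24 with an interval above 0, and Lin37, a DREAM subunit, 4.59 and 5.84 FPKM, a difference of 0.34 on 157 and 228 fragments. E2f1, an activating E2F, had 7.31 and 6.82 FPKM, a difference of -0.10 with an interval that includes 0.

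Of the CDK inhibitors and G1 cyclins, 12 of 13 passed, with a median of 0.035, 5 lower and 7 higher, 3 intervals below 0 and 4 above. Cdkn1a, which encodes p21 and inhibits the kinases of S phase entry, had 51.2 FPKM in the sham-irradiated and 124 FPKM in the irradiated library, a difference of 1.27, and it was the only gene of the pathway lists past a difference of 1. Ccnd1, cyclin D1, had 7.01 and 11.8 FPKM, a difference of 0.74 (counting interval 0.64 to 0.86). Cdkn2b, the inhibitor p15, had 9.09 and 7.31 FPKM, a difference of -0.31. Cdkn1a thus differed by 1.27 in the same libraries in which none of the 47 genes differed by more than 0.31, and how the 2 values are related was not tested.

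**Figure D5:**
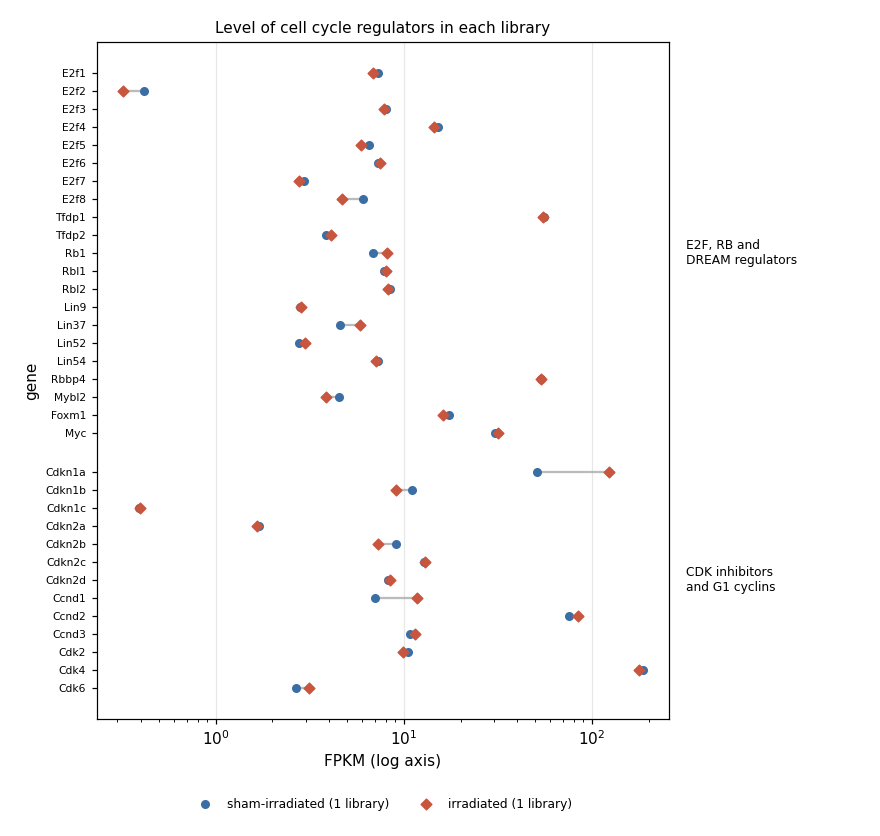
Level of 21 E2F, RB, and DREAM genes and 13 CDK inhibitors and G1 cyclins in the sham-irradiated (circles) and the irradiated library (diamonds), in FPKM on a log axis, with 1 library per condition. Cdkn1a has the widest gap, from 51.2 to 124 FPKM, followed by Ccnd1, from 7.01 to 11.8 FPKM.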

How the data were processed

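The data were RNA sequencing of polyadenylated RNA with a stranded Illumina preparation, 1 sham-irradiated and 1 irradiated library, assigned by the treatment label. The authors deposited a log2 value for each gene and library, made from FPKM after adding 0.1 and given to 2 decimals, beside coordinates and lengths. The build was mm10 per the labels, and the sources used here name no aligner, counting tool, or filter. FPKM was recovered by removing the logarithm and the 0.1. Library totals were found as those at which genes with few fragments came out whole, and 100% of 3260 and 3235 such genes lay within 0.12 of a whole number. The procedure was tested on simulated data. The rounding moves a difference by up to 0.01. At these depths, 3 fragments on 1 kb, the limit for a gene without fragments, correspond to an FPKM of 0.0981 and 0.0857. Differences are on the log2(FPKM + 0.1) scale, which understates those of low genes. Genes reaching 1 FPKM in either library were kept.

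The 47 genes, the gene lists, and the motifs were chosen with earlier results of these data known. All 47 were named, and of each other pathway list the 3 genes with the largest difference (ties included) plus Cdkn1a, Rrm2b, E2f1, Foxm1, and Mybl2, and 5 cell type markers. Neighbours and the other cell type markers were named after their values were seen. Sgo1 was not matched by symbol. Alternatives were an added 1 or no added constant, a filter at 5 FPKM or none, centring, scaling without the 100 most abundant genes, removal of a length trend over 10 bins, the mean, and thresholds of 0.5 and 2. SciPy 1.17.1, pandas 2.3.3, and numpy 2.4.6 were run under Python 3.11.15, with matplotlib 3.10.9 for plots.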

Additional observations from a re-analysis of the deposited data

How the results depend on the processing

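No paired analysis was possible because sham-irradiated and irradiated mice gave 1 library each, so that leaving out a replicate was not possible either. The median difference of the 47 genes lay between -0.13, after removal of the trend with gene length, and -0.095, with log2(FPKM + 1). Each step's median kept its sign under the other constants, filters, and scalings, and only for the cyclins and Cdk1 did the mean (-0.042) have another sign than the median (0.04). The number of genes lower in the irradiated library lay between 36, among the 44 with an FPKM of at least 5, and 41. The number lower by at least 0.1 lay between 23 and 27, and the number with a counting interval below 0 between 23 and 26. Widening each interval by 0.01 for rounding, chosen after seeing the data, left 23 below and 1 above 0. Without 5 genes overlapped on the other strand by a gene with an FPKM of at least 1, 21 of 42 lay below 0. Plk1, which Dctn5 overlaps on the same strand, was kept among the 21, as was Bub1. Mir684-1 overlaps Bub1 on the other strand, with 1.385 and 1.097 FPKM, but its listed span of 121912751 bases was treated as too long to count. The number of genes higher by at least 0.1 was 2 as reported, 1 with log2(FPKM + 1), and 0 with centring, with scaling without the 100 most abundant genes, and after removal of the length trend. Centring shifted each difference by -0.02. None of the 47 genes reached a difference of 1 under the alternatives run, nor 0.5 or 2 as reported. The log2 ratio of summed fragments depended on the most abundant gene in several steps. It was -0.116 without Rpa1 for DNA synthesis and -0.128 without Top2a for mitosis. It was -0.07 without Rrm1 for nucleotide supply, where the sign turned, and 0.015 without Ccna2 for the cyclins and Cdk1, where it also turned. No gene's difference moved beyond its own counting interval under the other constants, filters, and scalings, where 3 genes under 5 FPKM had no value with the stricter filter.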

Other observations

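The 47 genes were spread over 15 chromosomes. Chromosome 8 carries 6 of them (12.8%), Orc6, Cdt1, Mcm5, Gins2, Gins3, and Gins4, all of which are licensing genes, while 5.41% of all genes kept lie on it. Chromosome 5 carries 7 (14.9%), among them 4 of the 5 clamp loader genes, Rfc1, Rfc2, Rfc3, and Rfc5, with 6.42% of all genes kept. Chromosomes 7 and 11 also carry 6 members each (12.8%), of mixed steps, with 7.22% and 8.53% of all genes kept. The differences on chromosome 8 ran from 0.01 (Orc6) to -0.27 (Mcm5), and those of the 4 clamp loader genes from 0.06 to -0.14. Mcm7 carries the microRNA genes Mir25, Mir93, and Mir106b within its span, and these had 0 or 1 fragments in each library of polyadenylated RNA, while Mcm7 itself had 2942 and 3033. The chromosomes and the microRNA genes were looked at after the values had been seen, and no hypothesis was tested.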
